A study of Caenorhabditis elegans with 4 samples.

Results

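The RNA content of wild-type Caenorhabditis elegans larvae of the L1 stage, the first of the larval stages, is described here after 2.5 h of feeding that followed a hatch without food. The members are the 2 wild-type libraries of a total RNA-sequencing series that holds 4, chosen by their label alone, and the mutant libraries are not analysed here. The larvae were of the Bristol wild type, with the strain given as GW1 / N2, and carried no balancer chromosome. Their eggs were freed by bleaching adults grown on OP50 bacteria and hatched for 16 h in M9, a salt buffer without food. A sorter kept larvae of L1 size with no green pharynx, and these were fed again for 2.5 h before RNA was taken. A stranded total RNA kit and single reads of 50 bases were used. No label says that the 2 libraries came from separate cultures, so every SD below measures the spread between them, which may be technical. There is 1 group and no comparison between conditions, so no test was run and no p-value is given.

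Larvae that hatch into buffer halt their development before the first divisions of the larva and live on stored material. Food ends that halt, and growth then calls for new ribosomes, digestive enzymes, cell divisions and, at the end of the stage, a new cuticle. An L1 larva already has nearly all of the tissues of the adult, including muscle, intestine, pharynx, hypodermis and a working nervous system, but its gonad holds only a few precursor cells.

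The deposited table held whole-number read counts for 20392 genes, which summed to 54419838 in replicate 1 and 50755251 in replicate 2. A count of 0, which allows up to 3 counts, limits a gene to 0.0551 CPM (counts per 1000000) in replicate 1 and 0.0591 CPM in replicate 2, for counting error only. Levels are given in TPM, the count divided by the gene length of the deposited table and scaled to 1000000 per library. At the median length of 1106 bases, the limit was 0.0703 TPM in replicate 1 and 0.0748 TPM in replicate 2. Values in pairs below are replicate 1 first and replicate 2 second, and a mean ± SD is over these 2 libraries (n = 2). Since whole larvae were used, fewer cells of a type and less RNA per cell cannot be told apart in any level below.

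The 2 libraries gave nearly the same picture. Over the 15103 genes with at least 10 counts in both, Pearson's r of log2 TPM was 0.995 and Spearman's rho 0.997, as a description across genes, which are not independent replicates. Of these genes, 79.2% lay within 1.2-fold of each other and 94.3% within 1.5-fold. The biological coefficient of variation, the spread beyond counting error that edgeR estimates from all genes together, was 5.46%. The chi-square between the libraries, which counting error alone would keep near 1 per gene, had a mean of 10.2 and a median of 1.59 over these genes. The libraries therefore differed by more than counting error, which does not show that they came from separate cultures. The median fold between the libraries was 1.18 for the 1969 genes at 1 to 3 TPM, 1.06 for the 3922 genes at 10 to 30 TPM and 1.05 for the 139 genes at 1000 TPM or more. A difference of under 1.2-fold between low genes is therefore within the usual spread.

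**Figure D1:**
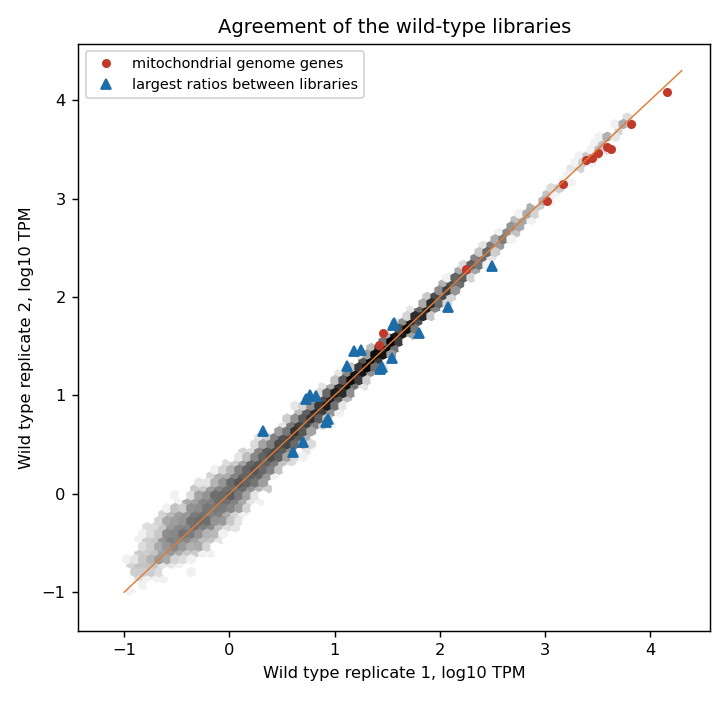
The log10 TPM of each gene with at least 10 counts in both libraries is plotted for replicate 1 (x axis) against replicate 2 (y axis), with darker hexagons for more genes, the line of equal values in orange, mitochondrial genome genes as red dots and the genes with the largest ratios as blue triangles. The cloud narrows as levels go up, and most of the abundant mitochondrial genes lie below the line, higher in replicate 1.

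Of 9690 genes with at least 10 counts in both libraries and 5 CPM in either, 12 differed by more than 1.5-fold, 5 of them higher in replicate 1 and 7 in replicate 2. The largest ratio was that of cyp-13A12, a cytochrome P450 gene, at 2.11 and 4.35 TPM from 136 and 264 counts. C42D4.3 stood at 15.2 and 27.95 TPM, F26G1.5 at 5.84 and 10.02 TPM and phat-5, a pharyngeal gland gene, at 5.41 and 9.23 TPM. The ground-like gene grl-21 stood at 17.8 and 28.9 TPM. In the other direction, fbxc-36, an F-box gene, gave 8.27 and 5.39 TPM, F56H9.2 gave 316 and 208 TPM and ndua-2, named for a complex I subunit, gave 119.7 and 79.6 TPM. None of these genes was among the 100 most abundant.

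A small number of genes held much of the RNA. The 100 most abundant genes held 41.04% of TPM in replicate 1 and 41.3% in replicate 2 (41.2% ± 0.196), and the 1000 most abundant held 70.7% and 71.0%. It took 184 genes in replicate 1 and 180 in replicate 2 to reach 50% of TPM, and 4296 and 4248 genes to reach 90%. At the other end, 12889 genes, 63.2% of the table, stood at 1 TPM or more in both libraries, 8337 had a mean of 10 TPM or more, 1276 of 100 or more and 139 of 1000 or more. The median of the genes at 1 TPM or more was 17.7 TPM, with quartiles of 6.03 and 41.6 TPM. The same 100 genes were the most abundant in both libraries, and 29 of the 30 most abundant were shared.

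**Figure D2:**
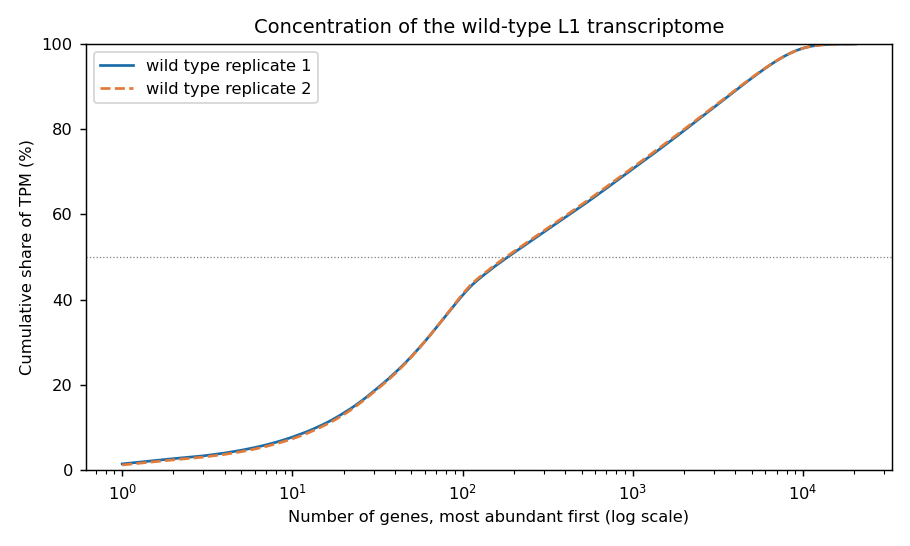
The cumulative share of TPM (y axis, percent) is drawn against the number of genes, most abundant first (x axis, log scale), for each wild-type library. The curves lie on each other and cross the dotted line at 50% at 184 genes in replicate 1 and 180 in replicate 2.

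The 30 most abundant genes comprised 24 genes for cytosolic ribosomal proteins, 2 translation elongation factors, 2 genes of the mitochondrial genome, 1 protease and 1 mitochondrial carrier. Elongation factor eEF1A, which brings aminoacyl-tRNA to the ribosome, led the nuclear genes through eef-1A.1 at 12305 and 12006 TPM (12156 ± 212). Its companion eef-2, which moves the ribosome along the mRNA, stood at 5709.6 and 5559.6 TPM (5635 ± 106). The most abundant gene outside translation and the mitochondrial genome was asp-1, an aspartyl protease of the intestine, at 6261 and 6283 TPM (6272 ± 15.6). Next to it stood ant-1.1, the mitochondrial carrier that swaps ADP for ATP, at 6105 and 6324 TPM (6214 ± 155). Of the 100 most abundant genes, 75 were ribosomal protein genes, 7 were mitochondrial genome genes, 4 were translation factors, and 3 each were proteases and chaperones.

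Raw counts also grow with the length of a gene, and by raw counts the order was different. The entry for mitochondrial ND3 took 2.95% and 2.47% of all counts, eef-1A.1 took 1.36% and 1.33% and eef-2 took 1.14% and 1.12%. They were followed by the mitochondrial genes ND4, at 0.800% and 0.699%, and COX1, at 0.737% and 0.652%. The remaining genes of the first 10 were asp-1, the chaperone hsp-90, ant-1.1, rpl-3 and the chaperone hsp-1, between 0.501% and 0.617% of counts each. Of the first 10 genes, 1 coded for a ribosomal protein by raw counts, rpl-3, and 5 by TPM. Of the first 30 it was 13 by raw counts and 24 by TPM.

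Ribosomal protein genes were the largest class. The 85 genes held 31.4% of TPM in replicate 1 and 32.2% in replicate 2 (31.8% ± 0.583), and 15.0% and 15.5% of raw counts. The 52 genes of the large subunit held 18.2% and 18.7% of TPM, the 32 of the small subunit 12.6% and 12.97%, and rack-1, a scaffold on the small subunit, is counted apart at 4987 and 5470.2 TPM. The most abundant were rpl-7 at 6579.5 and 6495 TPM (6537 ± 59.8), rps-7 at 6475 and 6187 TPM (6331 ± 203) and rla-0, a protein of the ribosomal stalk, at 6375 and 6144 TPM (6259 ± 163). The levels lay close together. The median was 3690.4 TPM with quartiles of 2776 and 5061 TPM, a ratio of 1.82 between the quartiles, where the ratio over all genes at 1 TPM or more was 6.89. In 57 genes replicate 2 was higher and in 28 genes replicate 1.

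Only 5 of the 85 genes grouped by name as ribosomal were under 1000 TPM. These were rpl-37 at 556 and 638 TPM, rpl-24.2 at 333 and 388, rpl-2 at 289 and 334, rpl-11.1 at 176 and 169 and rpl-42 at 1.30 and 1.22 TPM. The last of them rested on 26 and 23 counts. For genes whose names differ only in the last digit, the split of TPM was computed. These pairs rest on the name alone, and whether both genes code for the same protein was not checked. The gene rpl-11.2 held 96.1% of the TPM of the rpl-11 pair, and rpl-24.1 held 91.8% of the rpl-24 pair. The rpl-25 pair was shared more evenly, with rpl-25.1 at 2195 and 2248 TPM and rpl-25.2 at 1527 and 1917 TPM.

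The rest of the translation machinery was high as well. The 43 genes for translation factors held 3.40% and 3.34% of TPM, all at 1 TPM or more. After the elongation factors named above came eef-1G, a subunit of the factor that recharges eEF1A, at 2675 and 2485 TPM, and eef-1A.2, the other eEF1A gene, at 2029 and 2159.6 TPM. The copy eef-1A.1 held 85.3% of the eEF1A total. How reads that fit both copies were treated is not given, so this split is uncertain. The poly(A)-binding protein gene pab-1 stood at 1954 and 2008 TPM and iff-2, an eIF5A gene, at 1878 and 2049.6 TPM. All 32 aminoacyl-tRNA synthetase genes were present, with a median of 126.4 TPM, led by kars-1 for lysine at 319 and 334 TPM and lars-1 for leucine at 305 and 304 TPM. Genes of the nucleolus, where ribosomal RNA is made, were high too. The nucleolar methyltransferase gene fib-1, which codes for fibrillarin, stood at 1009 and 1018 TPM (1014 ± 5.87), and its partners nol-56 and nol-58 at 780.3 and 845 TPM and 796 and 765 TPM. These were the highest of 89 genes grouped by name as splicing and RNA-binding proteins, whose median was 51.6 TPM. The name patterns left out genes such as rbm-3.2, named for an RNA-binding motif, at 866 ± 158 TPM. The 7 genes of the Sm ring, a core of the splicing machinery, lay between 78.0 TPM (snr-6) and 178 TPM (snr-2).

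Chaperones held 2.56% and 2.53% of TPM over 100 genes. The constitutive Hsp70 gene hsp-1 stood at 3396 and 3460.2 TPM (3428 ± 45.3), hsp-90 at 3085 and 3035 TPM (3060.2 ± 35.4) and crt-1, the calreticulin of the endoplasmic reticulum, at 2682 and 2452 TPM (2567 ± 163). The protein disulphide isomerase genes pdi-2 and pdi-3 followed at 1051 and 1026 TPM and 978 and 1000.2 TPM. The 8 genes of the CCT chaperonin, the ring that folds actin and tubulin, lay between 208.6 TPM (cct-7) and 619 TPM (cct-5). The subunits of other complexes spread to different degrees. The 14 genes of the proteasome core lay between 83.2 TPM (pas-4) and 172.1 TPM (pas-5), a range of 2.07-fold, and the 6 regulatory ATPases between 75.1 and 116.0 TPM. The 69 genes of the mitochondrial ribosome lay between 25.6 TPM (mrpl-54) and 168.5 TPM (mrpl-12), a range of 6.58-fold, with a median of 71.0 TPM. The 12 genes of RNA polymerase II covered nearly the same range, from 25.6 TPM (rpb-11) to 173 TPM (rpb-6). The genes named for the vacuolar ATPase had the widest range of the complexes measured, from vha-18 to vha-2. Their ratio between the quartiles was 1.89, under the 2.24 of RNA polymerase II. The genes of each complex were taken by name, and whether some code for the same subunit was not checked. The complexes were picked after the files had been seen.

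Heat-inducible genes were mixed. The small heat shock genes hsp-16.2 and hsp-16.41 stood at 123 and 115 TPM and 118 and 102 TPM, while both identifiers of hsp-16.1 and both of hsp-16.48 had 0 counts. The hsp-16 genes include near-identical copies, so the split between them is uncertain. The inducible Hsp70 gene hsp-70 stood at 2.61 and 3.16 TPM, and F44E5.4 and F44E5.5, a near-identical Hsp70 pair, stayed under 1 TPM. Among Hsp70 genes, hsp-1 held 69.4% of the summed TPM and hsp-3, of the endoplasmic reticulum, 18.6%. The superoxide dismutase gene sod-1, of the cytosol, stood at 211 and 251 TPM, whereas sod-3, an inducible one, stood at 2.89 and 2.09 TPM. The catalase gene ctl-1 had 0 counts next to 56.1 and 55.04 TPM for its neighbour ctl-2, and these genes are close copies as well. The metallothionein genes mtl-2 and mtl-1 stood at 244 and 216 TPM and 76.2 and 85.7 TPM.

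**Figure D3:**
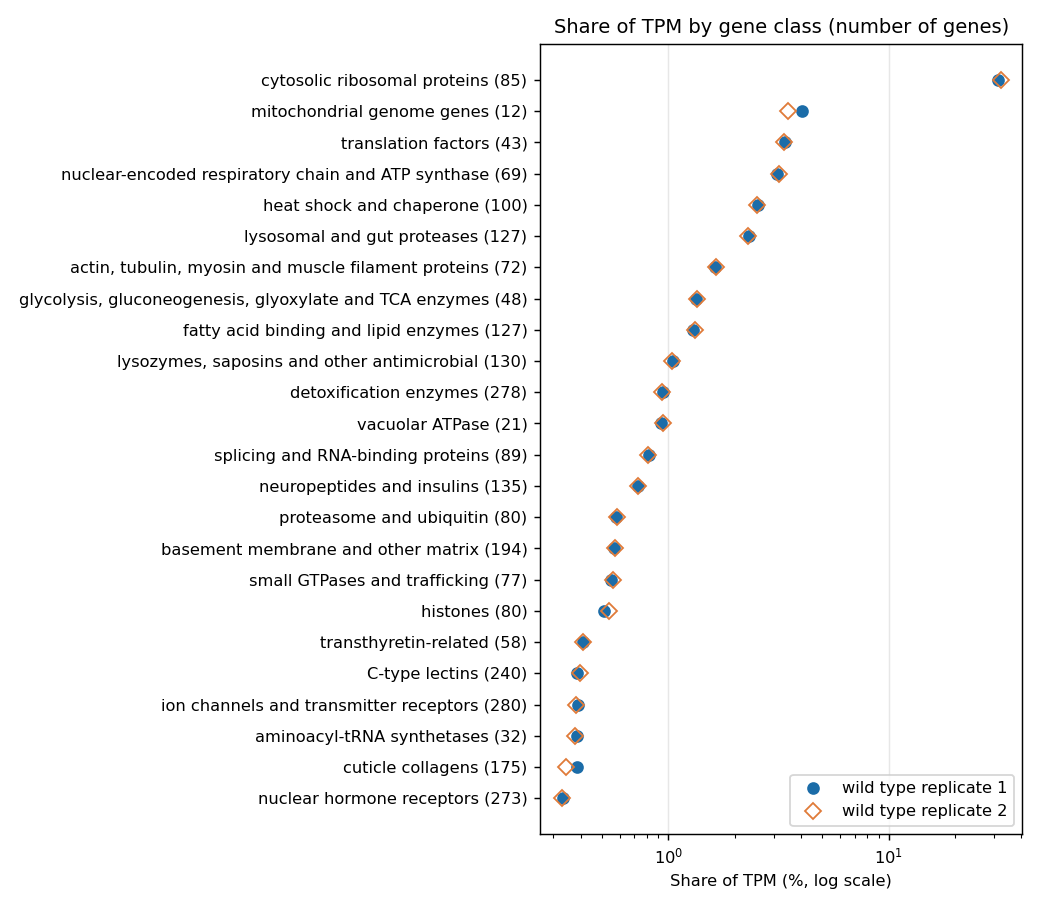
The share of TPM (x axis, percent, log scale) of each gene class with at least 0.3% is shown for both wild-type libraries, with the number of genes in brackets. Ribosomal proteins stand alone at 31.4% and 32.2%, and the symbols of the libraries separate visibly only for mitochondrial genome genes, histones and cuticle collagens.

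Among the classes by function, the mitochondrial genome came next after the ribosomal proteins, a rank that rests on 1 entry. The 12 protein genes of the mitochondrial genome held 4.05% of TPM in replicate 1 and 3.50% in replicate 2 (3.77% ± 0.384), and 5.51% and 4.74% of raw counts. The highest was the entry for ND3, a complex I subunit, at 14582 and 12093 TPM (13337 ± 1759.8). Its deposited length of 2855 bases is far over the 336 bases of the annotated gene, so the value may cover more than the ND3 message. With the annotated exon length in place of the deposited one, the ND3 entry would stand at 97865 TPM and the 12 genes would hold 12.4% of TPM. Without the entry, the other 11 genes held 2.59% and 2.29% of TPM (2.44% ± 0.208). This was below the translation factors at 3.37%, the nuclear genes grouped as respiratory chain and ATP synthase at 3.15% and the chaperones at 2.55%. For ND4 the deposited length was 2921 bases against 1303 annotated, and for ND1 it was 1541 against 873, so these carry the same limit.

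Among the entries whose length fits the annotation, COX1, the core of complex IV, stood at 6576 and 5768 TPM (6172 ± 572), COX3 at 4228 and 3185 TPM (3707 ± 737) and COX2 at 3225 and 2934 TPM (3079.8 ± 206). CYTB of complex III and ATP6 of the ATP synthase followed at 2771 and 2604 TPM and 2436 and 2489 TPM. The genome is copied into long transcripts that are then cut. ND2 stood at 179 and 191 TPM and ND4L at 28.6 and 43.6 TPM, far under COX1. The lowest of all 12 was ND6, for which the deposited length was 726 bases against 437 annotated, at 26.2 and 32.4 TPM. COX3 was 1.33 times as high in replicate 1 as in replicate 2, ND3 1.21 times and COX1 1.14 times, while ND4L was 0.657 times as high. The class therefore differed more between the libraries than the ribosomal proteins did.

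Nuclear genes grouped as respiratory chain and ATP synthase held 3.12% and 3.17% of TPM over 69 genes, 65 of them at 1 TPM or more. The group also holds the carrier gene ant-1.1, its highest member. The genes were taken by name pattern, which left out the complex I genes with an ndua- name and subunits such as Y82E9BR.3, so the share is not that of the whole chain. After ant-1.1 came atp-2, the beta subunit of the ATP synthase, at 2609 and 2651 TPM, and cyc-2.1, a cytochrome c gene, at 1637 and 1805 TPM. The alpha subunit gene atp-1 stood at 1124 and 1138 TPM. Of the 4 carrier genes, ant-1.1 held 99.98% of the TPM and ant-1.2, ant-1.3 and ant-1.4 each stayed under 1 TPM. The vacuolar ATPase, the pump that acidifies lysosomes and drives the excretory canal, held 0.924% and 0.941% of TPM over 21 genes. Its highest gene was vha-2 at 892 and 938 TPM, and its lowest was vha-18 at 1.93 and 1.56 TPM against a median of 420.6 TPM. Whether another gene codes for the same subunit as vha-18 was not checked, so its level need not be that of a subunit. The most abundant genes known by a sequence name alone were Y37E3.8, at 6186 and 5494 TPM, C37A2.7, at 2824 and 2728 TPM, and W01D2.1, at 2383 and 2849.6 TPM, all counted as ribosomal. The next, Y82E9BR.3 and R53.4, both ATP synthase subunits, stood at 1857 and 1739 TPM and 1459 and 1558 TPM.

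Among the tissue lists, which were chosen with earlier results of these data known, the intestine had the highest median. The order of tissues rests on which genes were listed. Of the 32 genes listed for the intestine, 31 stood at 1 TPM or more, with a median of 196.3 TPM and a summed level of 23531 and 23367 TPM. Digestive proteases led. Beside asp-1, asp-6 stood at 3156 and 3103 TPM, asp-3 at 2015 and 2056 TPM and asp-5 at 1992 and 1938 TPM, all aspartyl proteases. The cathepsin B-like genes cpr-4 and cpr-9 followed at 1209.7 and 1081 TPM and 997 and 942 TPM. The class of 127 lysosomal and gut proteases held 2.32% and 2.29% of TPM, but its median was 2.92 TPM, so that a few genes carried it. The microvillar actin gene act-5 stood at 1599.7 and 1636 TPM, the lectin gene clec-63 at 1341 and 1373 TPM and the gut filament gene ifb-2 at 552 and 561 TPM. The peptide transporter gene pept-1 stood at 151 and 148 TPM. The GATA factors elt-7 and elt-2, which set intestinal fate, were far lower at 18.4 and 18.5 TPM and 4.98 and 5.89 TPM, and the lysozyme gene lys-5 was the one marker under 1 TPM, at 0.298 and 0.237 TPM.

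Genes with antimicrobial products held 1.05% and 1.04% of TPM over 130 genes, of which 73 stood at 1 TPM or more. The saposin-like gene spp-14 led at 2432 and 2351 TPM (2392 ± 57.3), followed by spp-5, whose product opens pores in bacterial membranes, at 1263 and 1233 TPM, and the lysozyme gene lys-1 at 572 and 559 TPM. Of 240 C-type lectin genes, 81 stood at 1 TPM or more. After clec-63, the next were clec-1 at 381 and 423 TPM and clec-50 at 296 and 286 TPM, so 1 gene held a large part of the family's 0.386% and 0.395% of TPM. Of 278 detoxification genes, 233 stood at 1 TPM or more, led by the peroxiredoxin gene prdx-2 at 844 and 877 TPM, the ferritin gene ftn-2 at 777 and 746 TPM and the glutathione transferase gene gst-1 at 401 and 418 TPM. Ferritin came mostly from ftn-2, with 92.7% of the pair, over ftn-1 at 59.2 and 60.5 TPM.

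Genes of fat use and of sugar synthesis were abundant at this time. Of the 52 genes listed for fasting, gluconeogenesis and fat use, 50 stood at 1 TPM or more, with a median of 74.6 TPM. The fatty acid and retinol binding gene far-1 led at 3476 and 3752 TPM (3614 ± 195) and held 86.9% of the TPM of its family of 8. The next was icl-1, which codes for the bifunctional enzyme of the glyoxylate cycle that turns fat into sugar, at 1320.4 and 1363 TPM (1342 ± 30.4). Citrate synthase, cts-1, stood at 1171 and 1196 TPM and aconitase, aco-2, at 716 and 707 TPM. The PEPCK genes pck-2 and pck-1, which start gluconeogenesis, stood at 668 and 659 TPM and 367 and 342 TPM, and fbp-1, a later step, at 279 and 295 TPM. The desaturase genes of polyunsaturated fat, fat-2, fat-1 and fat-3, stood at 970.1 and 992 TPM, 637 and 624 TPM and 318 and 320.1 TPM. The stearoyl desaturase fat-6 stood at 169.8 and 182 TPM, while its paralogs fat-5 and fat-7 stood at 2.48 and 3.34 TPM and 1.29 and 1.72 TPM. The lysosomal lipase gene lipl-4 and the fatty acid chaperone gene lbp-8 were low, at 1.88 and 1.48 TPM and 0.736 and 0.414 TPM, where lipl-5 stood at 70.3 and 67.2 TPM. Of the GAPDH genes, gpd-2 and gpd-3 stood at 282 and 248 TPM and 224 and 217 TPM, and gpd-1 and gpd-4 at 2.81 and 2.31 TPM and 1.38 and 0.954 TPM. These copies are nearly alike, so the split is uncertain.

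Insulin and TOR signalling, the pathways that hold or release the L1 halt, were covered by 38 listed genes, of which 36 stood at 1 TPM or more. The insulin receptor gene daf-2 stood at 64.5 and 61.6 TPM, its PI3 kinase gene age-1 at 16.5 and 16.1 TPM and the kinase gene akt-1 at 145 and 144 TPM. The transcription factor gene daf-16, the FOXO at the end of the pathway, stood at 14.9 and 16.5 TPM. The TOR kinase gene let-363 stood at 67.9 and 69.5 TPM and rsks-1, the S6 kinase, at 119 and 116 TPM. The highest of the list was hif-1, a factor of the oxygen response, at 292 and 310.0 TPM. Among the ligands, ins-17 led at 88.9 and 92.8 TPM, then ins-30 at 81.97 and 89.1 TPM and ins-26 at 59.4 and 60.99 TPM. The ligand daf-28 stood at 10.8 and 11.5 TPM, ins-6 at 11.3 and 12.1 TPM and ins-7 at 1.13 and 2.29 TPM. Of all 38 genes with an ins- name, 21 stood at 1 TPM or more. The energy sensor gene aak-2 stood at 112 and 115 TPM.

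Body wall muscle had the next highest median after the intestine. All 25 of its listed genes stood at 1 TPM or more, with a median of 131.4 TPM. The myosin heavy chain gene unc-54 led at 1009 and 1023 TPM (1016 ± 10.3), followed by the myosin light chain gene mlc-2 at 750.0 and 801 TPM (776 ± 36.2) and the troponin T gene mup-2 at 608 and 597 TPM (603 ± 7.89). The second heavy chain gene myo-3 stood at 174 and 177 TPM and the paramyosin gene unc-15 at 407 and 418 TPM. The muscle regulator gene hlh-1, the MyoD of the worm, stood at 12.6 and 12.5 TPM, and the acetylcholine receptor subunit genes unc-29, unc-38, unc-63 and lev-1 lay within a narrow range, from 11.1 to 12.4 TPM. Over the class of 72 genes of actin, tubulin, myosin and filament proteins the share was 1.63% and 1.64% of TPM. Behind act-5 it was led by act-4, an actin of muscle, at 1125 and 1252 TPM. How reads that fit several actin genes were treated is not given, so the split among these genes is uncertain. The body wall troponin C gene pat-10 stood at 940.3 and 788 TPM. Among the alpha-tubulins, tba-2 and tba-1 held 42.7% and 35.7% of the TPM, and mec-12, listed here for the touch neurons, 11.5%.

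The pharynx split by kind of gene. Its muscle genes were high, with the myosin genes myo-2 at 365 and 362 TPM and myo-1 at 353 and 346 TPM and the troponin I gene tni-4 at 323 and 302 TPM, and pha-4, the FoxA factor that sets pharyngeal fate, stood at 24.5 and 26.5 TPM. Genes of the lining were low and those of the glands mixed. All 14 genes with an abu- name were under 1 TPM, and abu-1, abu-7 and pqn-2 had 0 counts. Of the 8 genes with a phat- name, which are gland genes, 6 stood at 1 TPM or more, led by phat-8 at 290.0 and 298 TPM, and phat-1 and phat-2 stood at 0.0530 and 0.282 TPM and 0.332 and 0.930 TPM. Of the 23 listed genes, 14 stood at 1 TPM or more.

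The cuticle genes of the hypodermis were mostly low. The 175 cuticle collagen genes held 0.385% of TPM in replicate 1 and 0.342% in replicate 2 (0.363% ± 0.0305), and 60 of them stood at 1 TPM or more. The most abundant was col-125 at 1385 and 1039 TPM (1212 ± 244), which alone held about as much as the next 5 together and was higher in replicate 1. The next were col-42 at 274 and 253 TPM, col-98 at 270.5 and 247 TPM and col-166 at 235 and 248 TPM. Of the furrow and body shape collagens known from dumpy and roller mutants that were listed as markers, dpy-5 stood at 1.76 and 1.59 TPM and the others were under 1 TPM in both libraries. The gene dpy-7 stood at 0.441 and 0.681 TPM, dpy-10 at 0.844 and 0.816 TPM, dpy-13 at 0.369 and 0.224 TPM, sqt-3 at 0.422 and 0.827 TPM, rol-6 at 0.0668 and 0.213 TPM and sqt-1 at 0.0994 and 0.0264 TPM. Among genes of the basement membrane, which lies under the tissues, let-2 and emb-9, the type IV collagen chains, stood at 492 and 416 TPM and 417 and 362 TPM, and ost-1, which codes for the collagen-binding protein SPARC, at 933 and 959.6 TPM.

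Other genes listed for the hypodermis were present, and whether each is limited to it was not tested. The hedgehog-related gene grd-10 stood at 96.5 and 98.7 TPM, the apical junction gene ajm-1 at 89.4 and 90.2 TPM, and the epidermal factors lin-26 and elt-1 at 37.1 and 40.5 TPM and 21.7 and 20.7 TPM. Of 27 listed genes, 15 stood at 1 TPM or more, and the listed markers below that level were cuticle collagens, the warthog genes wrt-1, wrt-2 and wrt-10, grd-1, che-14 and nhr-73. The genes of the moult were mixed. Of the 8 genes with an mlt- name, 6 stood at 1 TPM or more, with a median of 2.76 TPM. The moulting regulator gene nhr-23 stood at 2.23 and 2.43 TPM, and mlt-10, mlt-11 and bli-5, which act as the cuticle is replaced, stood at 1.63 and 1.69 TPM, 0.151 and 0.228 TPM and 0.0852 and 0.226 TPM. The highest were mlt-7, a peroxidase gene, at 40.8 and 42.5 TPM and mlt-3 at 22.2 and 20.01 TPM.

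All 25 genes listed for neurons in general stood at 1 TPM or more, with a median of 61.2 TPM. The highest was the tubulin gene tbb-1, which is not limited to neurons, at 442 and 459 TPM. The neuropeptide-processing genes egl-21 and egl-3 stood at 405 and 421 TPM and 349 and 368 TPM, and the dense core vesicle gene ida-1 at 255 and 238 TPM. The synaptic vesicle genes snb-1, rab-3 and snt-1 stood at 206 and 204 TPM, 70.2 and 62.7 TPM and 67.3 and 61.6 TPM. All 17 genes listed for transmitter identity stood at 1 TPM or more. The GABA-making gene unc-25 stood at 64.4 and 64.6 TPM, the acetylcholine transporter gene unc-17 at 40.5 and 39.8 TPM and the glutamate transporter gene eat-4 at 33.8 and 32.5 TPM. Genes for dopamine, serotonin, tyramine and octopamine synthesis stood at 4.93 and 5.31 TPM (cat-2), 4.11 and 4.13 TPM (tph-1), 17.3 and 16.3 TPM (tdc-1) and 3.26 and 3.41 TPM (tbh-1).

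Genes listed for single classes of neurons were also measured. Of these 46 genes, 38 stood at 1 TPM or more, with a median of 5.10 TPM, where the share over all genes was 63.2%. Genes listed for the touch receptor neurons led, with the tubulins mec-12 and mec-7 at 141 and 157 TPM and 123 and 124 TPM. The tubulin acetyltransferase gene mec-17 stood at 98.97 and 111 TPM and the channel gene mec-4 at 7.83 and 7.73 TPM. Whether each listed gene is limited to its class of neuron was not tested. The TGF-beta ligand gene daf-7, made in a pair of head sensory neurons, stood at 65.5 and 64.3 TPM. The guanylate cyclase genes gcy-8, gcy-18 and gcy-23 of the thermosensory neuron stood at 6.76 and 6.70 TPM, 12.7 and 11.4 TPM and 6.07 and 6.23 TPM. The odour receptor gene odr-10 stood at 8.55 and 7.33 TPM. The receptor gene str-2 gave 1 and 9 counts and che-1, the factor of the salt-sensing neuron, 0.221 and 0.503 TPM.

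Neuropeptide genes were much more abundant than receptors. Of 135 genes for neuropeptides and insulins, 111 stood at 1 TPM or more, and they held 0.727% and 0.731% of TPM. The highest were nlp-49 at 312 and 342 TPM (327 ± 21.5), flp-1, an FMRFamide-like gene, at 330.2 and 275 TPM (303 ± 39.1) and flp-17 at 231 and 232 TPM (232 ± 0.579). Next came pdf-1, a peptide that promotes roaming, at 239 and 224 TPM. In contrast, the 1285 chemoreceptor-type receptor genes together held 0.0649% and 0.0679% of TPM. Of these genes, 117 stood at 1 TPM or more, 52 had 0 counts in both libraries and 3 had a mean of 10 TPM or more. These were srv-1 at 18.2 and 19.3 TPM, srsx-26 at 18.1 and 17.6 TPM and srw-86 at 11.4 and 13.6 TPM. The median chemoreceptor gene stood at 0.207 TPM. The name patterns of the class left out the srr- family of serpentine receptors, of whose 9 genes 5 stood at 1 TPM or more, led by srr-4 at 51.02 and 56.3 TPM. The 280 genes for ion channels and transmitter receptors lay in between, with 243 at 1 TPM or more and a median of 6.57 TPM, and were led by the innexins inx-12 at 251 and 257 TPM and inx-13 at 177 and 187 TPM.

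**Figure D4:**
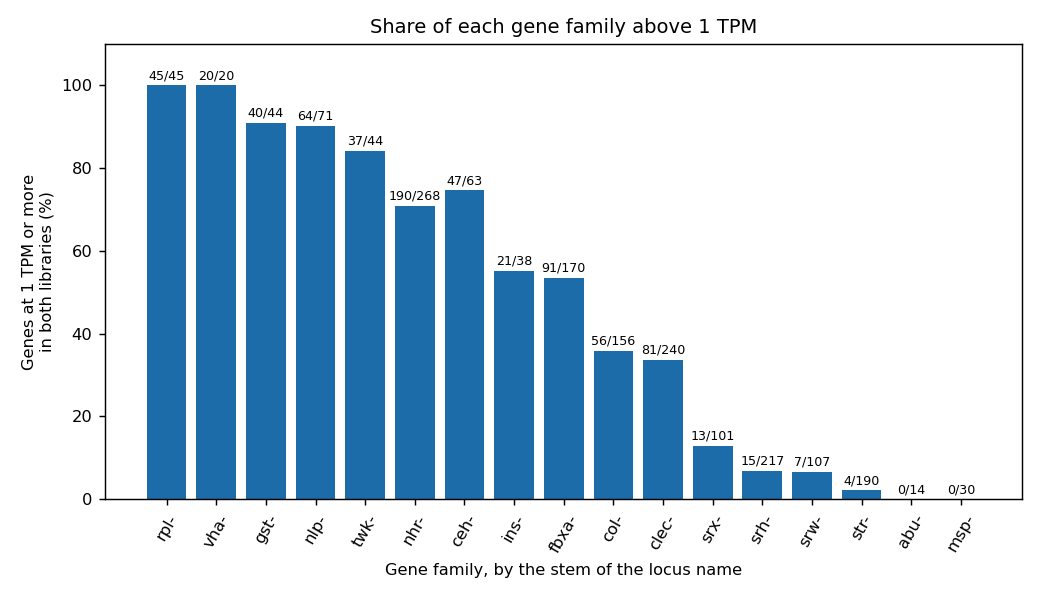
For 17 gene families, named by the stem of the locus name, the bars give the percent of genes at 1 TPM or more in both libraries, with the number of such genes over all genes of the family printed above each bar; the families were chosen after their values had been seen. The rpl- and vha- families are complete at 45 of 45 and 20 of 20, the str- receptors reach 4 of 190, and the abu- and msp- families have none.

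The share of genes at 1 TPM or more was 63.2% over all genes and differed between large families. Of 273 nuclear hormone receptor genes, 193 (70.7%) stood at that level, near the share of all genes. They were led by nhr-97 at 311 and 315 TPM, nhr-88 at 134 and 133 TPM and nhr-40 at 88.6 and 88.8 TPM. The fasting regulator gene nhr-49 stood at 74.3 and 80.8 TPM. Of 483 genes for F-box, MATH and BATH proteins, 179 (37.1%) stood at 1 TPM or more. The highest were sdz-24, grouped here by its name alone, at 169 and 179.7 TPM and bath-36 at 115 and 131 TPM. Of 63 homeobox genes with a ceh- name, 47 stood at 1 TPM or more. The transthyretin-related family of 58 genes had 44 (75.9%) at that level, led by ttr-16 at 761 and 771 TPM and ttr-15 at 516 and 477 TPM.

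Markers listed for smaller tissues were also measured. Reaching 1 TPM does not by itself show a tissue, as 63.2% of all genes did so in both libraries. All 8 listed genes of coelomocytes, the scavenger cells of the body cavity, stood at 1 TPM or more. The lysosomal membrane gene lmp-1, which other cells use too, led them at 283 and 295 TPM, and unc-122 and cup-4 stood at 10.8 and 10.4 TPM and 13.8 and 15.1 TPM. Of 18 genes of the excretory system, 17 stood at that level. Its most abundant were pump subunits that other tissues share, such as vha-8 at 731 and 749 TPM, while the aquaporin gene aqp-8 and the factor gene ceh-6 stood at 36.4 and 39.1 TPM and 9.59 and 10.2 TPM. Of 17 glial genes, 10 stood at that level, and the median was 2.23 TPM. The glial list was led by the glutamate transporter gene glt-1, found in muscle as well, at 148 and 151 TPM, and the sheath gene vap-1 at 63.9 and 70.7 TPM. The glial factor gene hlh-17 stood at 0.349 and 1.22 TPM.

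**Figure D5:**
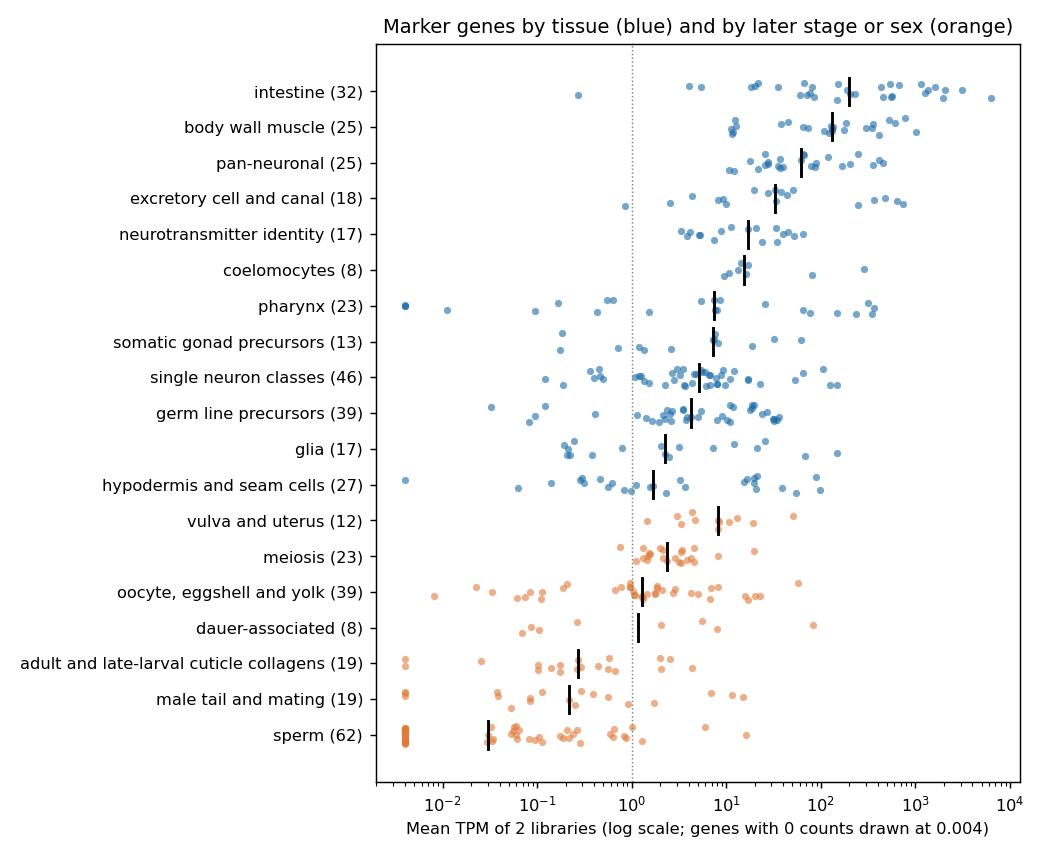
Each point is the mean TPM of 1 listed gene over both libraries (x axis, log scale, genes with 0 counts drawn at 0.004), in rows by tissue (blue) or by later stage or sex (orange), with the number of identifiers in brackets, the median as a black bar and 1 TPM as the dotted line. Intestine and body wall muscle have the highest medians, 196.3 and 131.4 TPM, and sperm the lowest, 0.0299 TPM. The order rests on which genes were listed.

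Genes listed for the germ line and gonad were mostly low, but many reached 1 TPM, as did 63.2% of all genes. Of 39 genes listed for germ line precursors, 34 stood at 1 TPM or more, with a median of 4.26 TPM. The Piwi gene prg-1 stood at 35.9 and 36.8 TPM, and the germ granule genes glh-1 and pgl-1 at 19.6 and 17.98 TPM and 18.2 and 17.2 TPM. The RNA helicase gene cgh-1 and its partner car-1 stood at 30.9 and 33.6 TPM and 34.01 and 34.8 TPM. The embryonic granule genes meg-1, meg-2 and meg-4 and the nanos gene nos-2 were under 1 TPM in both libraries. Of the 13 genes listed for the somatic gonad, 10 stood at 1 TPM or more. The highest, tcer-1, stood at 64.3 and 59.3 TPM, and gon-1 at 31.4 and 32.6 TPM. Whether tcer-1 and gon-1 are limited to the gonad was not tested, so their levels do not measure that tissue. The precursor genes ehn-3 and hnd-1 stood at 0.230 and 0.140 TPM and 0.155 and 0.198 TPM.

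The early timers lin-28 and lin-14 led the 30 genes listed for developmental timing and moulting. The genes lin-28 and lin-14, which hold larvae at the first fates, stood at 96.3 and 88.1 TPM (92.2 ± 5.80) and 57.4 and 65.5 TPM (61.5 ± 5.73), and lin-41, which acts later, at 40.1 and 42.2 TPM. The gene hbl-1, of the early larval fates, stood at 6.95 and 8.28 TPM and the adult-fate gene lin-29 at 1.22 and 1.71 TPM. The oscillating timer lin-42 was under 1 TPM in both libraries, at 0.707 and 0.944 TPM. Of 12 Hox and positional genes, 11 stood at 1 TPM or more. The cofactor genes ceh-20 and unc-62 stood at 61.9 and 67.9 TPM and 34.8 and 36.3 TPM, and the Hox genes themselves at 14.6 and 15.1 TPM (mab-5), 14.7 and 14.5 TPM (ceh-13), 15.1 and 12.2 TPM (lin-39) and 4.74 and 5.36 TPM (egl-5).

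Genes of DNA replication and cell division were present in all but 1 case. Of 42 listed genes found in the table, 41 stood at 1 TPM or more in both libraries, and the exception, cyb-2.1, stood at 0.859 and 1.07 TPM. The replication clamp gene pcn-1 led at 78.9 and 78.97 TPM (78.95 ± 0.0290), followed by the ribonucleotide reductase genes rnr-2 and rnr-1 at 74.3 and 72.5 TPM and 67.4 and 72.3 TPM. The 6 genes of the MCM helicase lay between 35.2 TPM (mcm-2) and 67.5 TPM (mcm-5). The cyclin genes cyd-1 and cye-1, which act before replication, stood at 7.03 and 8.08 TPM and 6.06 and 6.36 TPM, and the mitotic kinase gene cdk-1 at 41.5 and 44.1 TPM. The inhibitor gene cki-1, which holds cells out of the cycle, stood at 35.2 and 37.8 TPM.

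Many histone genes had no reads. Of 80 histone genes, 31 stood at 1 TPM or more and 43 had 0 counts. The replication-dependent gene his-3 stood at 521 and 528 TPM and his-4 at 433 and 555 TPM (494 ± 86.7). The variant genes his-72, an H3.3, and htz-1, the H2A.Z, stood at 438 and 462 TPM and 124 and 135 TPM, and the linker gene his-24 at 123 and 129.8 TPM. The reference table gave 36 of the histone identifiers a symbol that another identifier also carries, and 35 of these 36 had 0 counts, against 8 of the 44 with a symbol of their own. Over all protein-coding identifiers, 195 carried one of 92 shared symbols. Of these 195, 186 (95.4%) had 0 counts and 0 stood at 1 TPM or more, against 442 of 18981 (2.33%) among those with their own symbol. For such copies, as for hsp-16.1, a count of 0 cannot be told apart from reads left unassigned. How the authors treated reads that fit several genes is not given in the sources used here, and its part in these zeros was not tested.

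Genes listed for later stages and for the other sex were mostly low or not detected. Of 62 listed identifiers for sperm genes, 3 stood at 1 TPM or more, spe-39 at 15.9 and 16.7 TPM, spe-15 at 5.99 and 5.86 TPM and spe-9 at 1.204 and 1.35 TPM, and 30 had 0 counts. The summed level was 29.6 and 31.7 TPM, most of it from spe-39, which acts in vesicle traffic and is used outside sperm. The list did not hold all genes named for sperm defects. Of all 28 genes with a spe- name, 8 stood at 1 TPM or more, led by spe-48 at 21.9 and 20.5 TPM. Of the 65 genes of the major sperm protein and other sperm families, only nspd-7 reached 1 TPM, at 3.75 and 5.55 TPM, and none of the 30 msp- genes did. Many of these genes are near-identical copies, so the limit on shared symbols and reads applies to them as well. The 6 vitellogenin genes, which code for yolk, were all under 1 TPM. The highest, vit-6, stood at 0.209 and 0.201 TPM from 41 and 37 counts, and vit-5 gave 2 and 1 counts.

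The list for oocytes, eggshell and yolk had 21 of 39 genes at 1 TPM or more, led by the eggshell-related genes perm-3 at 55.1 and 59.7 TPM and perm-5 at 20.4 and 20.2 TPM and by ooc-3 at 22.6 and 22.4 TPM, while the oocyte factors oma-1 and oma-2 stood at 0.661 and 0.871 TPM and 1.29 and 1.30 TPM. Of 23 genes listed for meiosis, 21 stood at 1 TPM or more, where the share over all genes was 63.2%. Their median was 2.35 TPM, and only 1 had a mean of 10 TPM or more. The list was led by him-5 at 19.6 and 19.2 TPM and him-8 at 8.81 and 7.66 TPM. Of 19 collagens of later larvae and adults, 4 stood at 1 TPM or more, the highest col-71 at 4.10 and 4.61 TPM. The adult collagen gene col-19 gave 2 and 0 counts, and col-7 and col-62 had 0 counts. Of 19 identifiers for the male tail and mating, 4 stood at 1 TPM or more, led by the Hox gene mab-5 and by cwp-4 at 11.4 and 11.3 TPM, while lov-1 and pkd-2, which male sensory neurons use, stood at 0.202 and 0.232 TPM and 0.516 and 0.598 TPM. All 12 genes listed for the vulva and uterus stood at 1 TPM or more, led by fos-1 at 49.1 and 51.7 TPM, egl-26 at 18.6 and 19.4 TPM and egl-13 at 12.3 and 13.8 TPM, and several of them, such as lin-11 and cog-1, are also used in neurons. Of 8 genes tied to the dauer larva, the resistant stage, lea-1 stood at 80.8 and 83.6 TPM and the other 7 were under 10 TPM.

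In all, 726 genes (3.56%) had 0 counts in both libraries, and 2117 had at most 3 in each. A further 6309 genes had reads but less than 1 TPM in both libraries, and 468 reached 1 TPM in 1 library only. Of the genes with 0 counts, 352 were known by a sequence name, 57 were pseudogenes, 52 were chemoreceptor-type, 43 were histones and 36 were of the sperm families. Protein-coding genes with 0 counts had a median length of 532.5 bases, against 984 bases for those with reads but under 1 TPM and 1520.5 bases for those at 10 to 100 TPM. The 139 genes at 1000 TPM or more were shorter again, with a median of 773 bases, and 57.6% of them coded for ribosomal proteins. Protein-coding genes held 99.4% of TPM in each library. The table held only 30 non-coding RNA genes in this annotation, the highest W05H9.3 at 234 and 250.4 TPM, and ribosomal RNA is not analysed here.

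The chromosomes differed in how much of them was present. On chromosome III, 78.6% of the protein-coding genes stood at 1 TPM or more, on I 72.1%, on X 71.9%, on IV 64.2% and on II 60.9%. On V it was 53.1%, and 873 of its 4801 genes were of the chemoreceptor type. Without chemoreceptor genes the share on V was 63.2%, still the lowest, against 63.5% on II, 66.8% on IV, 72.7% on X, 72.9% on I and 79.4% on III. The median level of genes at 1 TPM or more was 23.03 TPM on III, 22.2 on I and 19.2 on II, with IV between I and II, and 13.8 on both V and X. The X held 8.57% and 8.74% of all TPM with 2620 genes, against 20.9% in both libraries for III with 2551 genes. Of the ribosomal protein genes, 20 lie on III and 2 on X, and without them III held 13.2% and 13.04% of TPM and X 7.92% and 8.08%.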

How the data were processed

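Total RNA of 2 wild-type libraries was read as single ends of 50 bases. Per the labels, the deposited table holds raw counts per gene, with a width column taken here as gene length in bases. Per the submitters' processing notes, ce10, Bowtie and edgeR 3.24.0 were used, with no role stated. Which counting tool and annotation were used, and whether reads were counted by strand, is not given in the sources used here. Reads shared by overlapping genes, antisense pairs included, can therefore not be assigned. A second table of normalized values and the mutant columns were not used. TPM was computed from the counts and the width, in Python 3.11.15 with pandas 2.3.3. The biological coefficient of variation came from edgeR 4.0.16 in R 4.3.3 (TMM, intercept only, at least 10 counts in both libraries), with DESeq2 1.42.0 for alternative size factors.

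Of 20392 identifiers, 19191 were given a name and 19870 a chromosome and type from the WBcel235 tables, which were used for no coordinates, since the counts rest on another build. For 13377 genes the deposited width was within 10% of the annotated exon length, and for 578 it was over 1.5 times it. All 12 mitochondrial genes were named from RefSeq by overlap.

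The genes were sorted into 33 classes by name and type, and 28 lists of markers and pathways were written, of whose 771 symbols 723 were found. The members and lists were chosen with earlier results of these data known. Name patterns for chemoreceptor, sperm and ribosomal genes were corrected after their members had been seen, which added 4 ribosomal genes. The genes named are the 30 highest by TPM, the 10 highest by counts, the 5 highest without a locus name, the 3 highest of each class and list, the 10 largest ratios between the libraries in each direction among genes with at least 50 counts, and further members of the lists, families and complexes that were picked after their values had been seen. TPM and dispersion steps were tested on simulated data. The libraries are 1 group and no test was made.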

Additional observations from a re-analysis of the deposited data

How the results depend on the processing

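No paired analysis was possible because the results come from no test and from 1 group. Each library alone gave 41.04% to 41.3% of TPM for the 100 most abundant genes, 31.4% to 32.2% for ribosomal proteins, 3.50% to 4.05% for mitochondrial genes, 0.342% to 0.385% for cuticle collagens, 13109 to 13137 genes at 1 TPM or more and 1132 to 1171 genes with 0 counts. Raw counts in place of TPM gave 30.2% for the 100 genes, 15.2% for ribosomal proteins, 5.12% for mitochondrial genes and 0.265% for collagens. With 49 bases taken off each length, the 100 genes held 41.8% and ribosomal proteins 32.7%, and without mitochondrial and non-coding genes 40.6% and 33.1%. The latter setting leaves no mitochondrial share to compute. Annotated exon length, an alternative chosen after seeing the data, gave 47.9%, 30.4%, 12.4% and 0.321% for the 100 genes, ribosomal, mitochondrial and collagen genes. Of the 12.4%, the other 11 mitochondrial genes without ND3 held 2.60%. The ribosomal list as first written held 30.3%. A limit of 0.5 TPM and of 5 TPM changed the number of genes to 13991 and 9912. Allowing up to 3 counts raised the genes called undetected to 2117, and leaving out shared symbols, added after seeing the data, gave 540. The coefficient of variation was 5.08% for genes with at least 5 CPM and 5.46% to 5.52% otherwise.

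The 2 libraries give a spread but no test, and counting error limits low genes: at 1 TPM a gene of median length rests on 42.7 counts in replicate 1 and 40.1 in replicate 2.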
